A study of Mus musculus with 2 samples.

Results

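Genes of inward rectifier (Kir) and two-pore leak (K2P) potassium channels were read in total RNA of mouse left cerebral cortex. The 10 genes, Kcnj3, Kcnj4, Kcnj6, Kcnj9, Kcnj10, Kcnj11, Kcnj16, Kcnk1, Kcnk2 and Kcnk9, were taken by symbol from 55536 annotated genes, and each symbol matched 1 gene. They are 7 of the 15 annotated Kcnj genes and 3 of the 14 annotated Kcnk genes.

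Both libraries came from female B6CASTF1/J mice, an F1 hybrid of the C57BL/6J and CAST/EiJ strains, aged 8 to 10 months and labelled with no treatment or engineered allele. Replicate 1 is animal 1 and replicate 2 is animal 5, with 1 library of 300 ng ribosome-reduced RNA and ERCC spike-ins per animal. The labels give both animals the same donor entry, so that they are separate animals rests on their numbers. The labels give 1 group, so no difference between conditions could be tested, and the results are levels, their order and the spread between the animals. Reads of both parental alleles were counted together on the reference genome, and alleles were not analysed here.

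Total expected counts were 28327434 in replicate 1 and 30234441 in replicate 2. Forebrain neuron, astrocyte and oligodendrocyte markers were all detected in both libraries, and 0 of 3 cerebellar granule cell markers reached 1 TPM. Of the marker lists, those of choroid plexus and of muscle had the largest median difference between the libraries. By the scaled counts described below, 4 of 4 measured choroid plexus markers and 4 of 4 muscle markers were lower in replicate 2. Of all measured genes, 7685 of 14127 were lower. The summed levels of these lists were 183 and 63.2 TPM for choroid plexus, of which Ttr alone had 172 and 55.7 TPM, and 22.2 and 10.2 TPM for muscle. Of the 6 oligodendrocyte markers 2 were more than 1.2-fold higher in replicate 2, against 14.3% of all measured genes. They were Opalin with 3.80 and 8.78 TPM and Mag with 75.7 and 120 TPM.

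Kir channels are tetramers that pass potassium into the cell more readily than out of it, which holds neurons and glia near their resting potential. Each Kir subunit has 1 pore loop, whereas a K2P subunit has a pair of pore loops and works as a dimer that leaks potassium at rest. In cortex, the channels opened by G proteins (GIRK or Kir3) slow neuronal firing, the ATP-sensitive channel (KATP) couples firing to metabolism, and astrocytic Kir4.1 takes up the potassium that firing neurons release.

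The pore loop carries the selectivity filter, whose middle codon differs between some of the subunits, and it is shown here for 8 of the 10 genes. In each 30-base stretch of coding sequence, from the GENCODE M21 transcript with the highest level among those with a complete coding sequence, capitals mark the filter's glycine codon, middle codon and second glycine codon.
Kcnj3: gaggccaccatcGGCTATGGCtaccgctac
Kcnj6: gaaaccaccatcGGTTATGGCtaccgggtc
Kcnj9: gagaccaccatcGGCTATGGGcaccgggtc
Kcnj10: cagaccaccatcGGCTATGGCttccgctac
Kcnj11: caggtgaccattGGTTTCGGCgggcgcatg
Kcnk1, pore 1: ctctccaccacaGGCTATGGCcacacggtg
Kcnk1, pore 2: ctgagcaccatcGGCCTGGGGgactatgtt
Kcnk2, pore 1: atcacaaccataGGATTTGGAaacatctcc
Kcnk2, pore 2: ctgacgaccattGGATTTGGAgactacgtg
Kcnk9, pore 1: atcacaactatcGGATATGGAcatgctgca
Kcnk9, pore 2: ttgactactataGGGTTCGGCgattttgtg
The middle codon is TAT, for tyrosine, in Kcnj3, Kcnj6, Kcnj9 and Kcnj10, and TTC, for phenylalanine, in Kcnj11. Kcnk2 has TTT in both pores, Kcnk9 has TAT in pore 1 and TTC in pore 2, and Kcnk1 has CTG, for leucine, in pore 2.

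All 10 genes were detected, that is, they had at least 1 TPM in both libraries, against 58.9% of 22028 protein-coding genes. Counts of detected genes in the other lists are to be read against this share. The 10 genes and the lists were chosen with earlier results of these data known. Such counts, and the median level of the 10 genes, are therefore descriptions and not tests. Of the other Kcnj genes 3 of 8 were detected, and of the other Kcnk genes 6 of 11. TPM divides the counts of a gene by its transcript length and scales each library to a common total, so levels can be compared between genes. The median of the 10 genes was 38.3 TPM in replicate 1 and 34.6 TPM in replicate 2, above the median of 16.5 TPM over the detected protein-coding genes. Kcnj4 had the highest mean level, at percentile 91.8 of the detected protein-coding genes, and Kcnk9 the lowest, at percentile 41.6. In bulk tissue, fewer cells of a type and less RNA per cell cannot be told apart.

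By mean level the order was Kcnj4, Kcnj10, Kcnj9, Kcnj3, Kcnk1, Kcnj6, Kcnk2, Kcnj11, Kcnj16 and Kcnk9. Kcnj4 lay above every other gene in both animals. The ranges of the 2 animals overlapped for 3 pairs of neighbours in this order, Kcnj10 with Kcnj9, Kcnj9 with Kcnj3, and Kcnk1 with Kcnj6, so the levels of these neighbours do not differ beyond the spread between animals. Within each animal Kcnj10 was nonetheless above Kcnj9 (55.4 against 50.3 TPM and 61.7 against 56.7 TPM), whereas the order within the other 2 pairs depended on the animal. Kcnj16 and Kcnk9 did not overlap in range, but the deposited credibility intervals of these 2 genes did overlap. In the second deposited transcript table Kcnj3 moved to place 2, ahead of Kcnj10 and Kcnj9, and the other 7 genes kept their places.

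**Figure D1:**
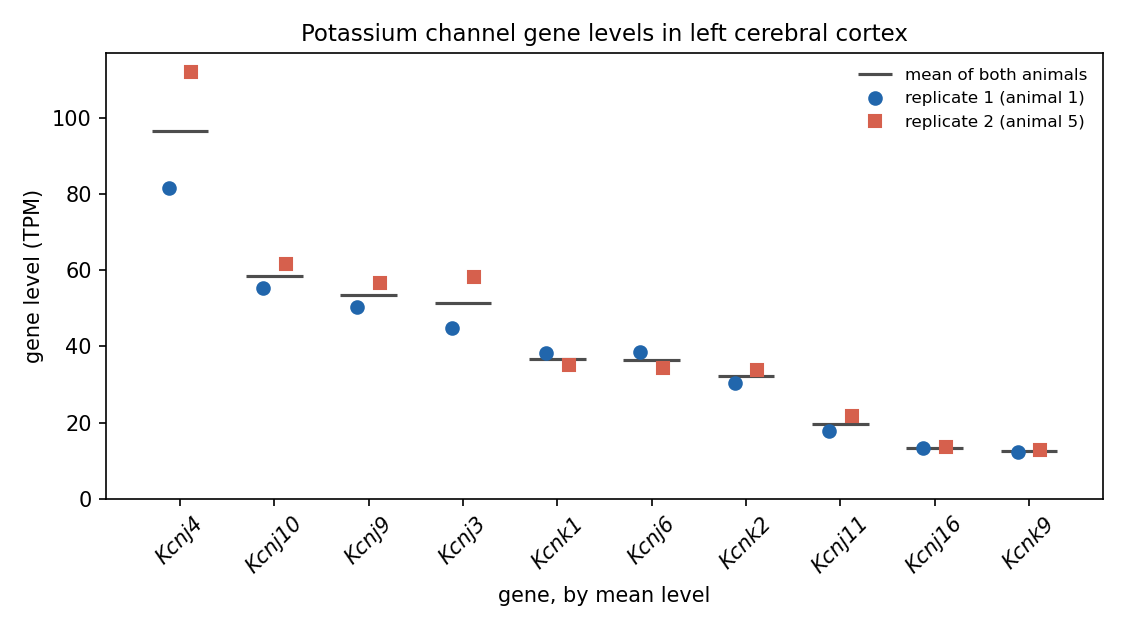
Levels of the 10 channel genes in TPM (vertical axis, linear from 0), ordered by mean (horizontal axis); circles are replicate 1, squares replicate 2 and lines the mean of both animals. Kcnj4 stands apart at 81.6 and 112 TPM, Kcnj10, Kcnj9 and Kcnj3 lie between 44.7 and 61.7 TPM, and Kcnj11, Kcnj16 and Kcnk9 lie below 22 TPM.

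Of the 3 GIRK subunit genes among the 10, Kcnj9 and Kcnj3 had similar levels and Kcnj6 was lower in both animals. Kcnj3 (chromosome 2, 55435970 to 55598145, plus strand, mm10) encodes Kir3.1, which needs a partner subunit to reach the cell surface. Its levels were 44.7 and 58.2 TPM in replicates 1 and 2, a mean of 51.5 ± 9.60 (SD, n = 2). Kcnj6 (chromosome 16, 94748636 to 94997701, minus strand) encodes Kir3.2, which can form channels by itself and is the partner that carries Kir3.1 to the surface. It had 38.4 and 34.2 TPM, a mean of 36.3 ± 3.0 (SD, n = 2), and was the GIRK gene that was lower in replicate 2. Kcnj9 (chromosome 1, 172320501 to 172329318, minus strand) encodes Kir3.3, a subunit that steers GIRK channels towards lysosomes. It had 50.3 and 56.7 TPM, a mean of 53.5 ± 4.55 (SD, n = 2). The remaining GIRK gene, Kcnj5, which encodes the heart's main partner of Kir3.1, had 0.31 and 0.48 TPM, so nearly all GIRK RNA came from the other 3 genes.

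The balance between the GIRK genes differed between the animals. The ratio of Kcnj6 to Kcnj3 TPM was 0.860 in replicate 1 and 0.587 in replicate 2, and the second table gave 0.796 and 0.542. The ratio of Kcnj9 to Kcnj3 was 1.13 and 0.974, so which of the pair was higher depended on the animal. Together the 4 GIRK genes held 41.3% and 39.0% of the summed TPM of all 15 Kcnj genes.

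The GIRK subunits end differently, and the ending is shown because the deposited tables separate the Kcnj6 forms that differ there. Sorting nexin 27 (Snx27), an endosomal protein, binds the ending of Kir3.3 and of the longer Kir3.2 form through its PDZ domain. The lines give the last 27 bases of the coding sequence with the stop codon, and capitals mark the last 3 sense codons.
Kcnj3, 501 codons: aaaatgaactctgacCGTTTCACAtag
Kcnj6, 414 codons: gaagaactgacggagAGGAATGGGtga
Kcnj6, 425 codons: aacctagagaatgaaTCCAAAGTAtag
Kcnj9, 393 codons: cccccagagagtgagTCCAAGGTGtga
Kcnj4, 445 codons: tcctatcgcagggaaTCTGCCATCtga
Kcnj10, 379 codons: cttagtgtgcgcatcAGCAACGTCtga
Kcnj16, 419 codons: aggatctccatggaaTCCCAGATGtag
Kcnj11, 390 codons: agcatctctccagatTCCTTGTCCtga
A serine codon followed at the end by a valine or isoleucine codon, the pattern that PDZ domains bind, is present in the 425-codon form of Kcnj6 and in Kcnj9, Kcnj4 and Kcnj10. The 414-codon form of Kcnj6, Kcnj3, Kcnj11 and Kcnj16 lack it.

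The 414-codon form held 53.0% and 51.2% of Kcnj6 TPM. Forms with the serine ending (the 425-codon form and a 407-codon form) held 43.0% and 42.2%. The second table gave 43.4% and 41.2% for the latter, so the split of Kcnj6 between its coding ends differed little between animals and tables. Over the 4 GIRK genes, transcripts with the serine ending (those of Kcnj6 with those of Kcnj9) held 46.3% and 43.0% of the TPM. Most Kcnj3 TPM, 95% and 98%, came from the forms of 501 codons. A 235-codon form of Kcnj3 that stops before the cytoplasmic end took 4.99% and 1.96%. Kcnj9 was 90.3% and 88.0% in its 393-codon forms, with the rest in a transcript that retains an intron.

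Differences between the animals are given as log2 differences, replicate 2 minus replicate 1, of expected counts scaled by the trimmed mean of M-values (TMM), a measure that can differ from the ratio of the TPM values. They were measured for 14127 genes, those averaging 50 counts or more. By this measure 14.3% of all measured genes were more than 1.2-fold higher in replicate 2 and 13.1% more than 1.2-fold lower, and counts in gene lists are to be read against these shares.

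Receptors that open GIRK channels through inhibitory G proteins were all detected (16 of 16), from a list chosen with the levels known. The GABA-B receptor subunits were the highest, Gabbr1 with 324 and 354 TPM and Gabbr2 with 102 and 101 TPM. The adenosine receptor Adora1 had 75.6 and 79.7 TPM and the cannabinoid receptor Cnr1 had 64.3 and 61.2 TPM. The serotonin receptor Htr1a had 4.8 and 6.13 TPM, the lowest level in replicate 1 but not in replicate 2. By scaled counts 1 of 16 receptors, Htr1a, was more than 1.2-fold higher in replicate 2 (14.3% of all genes), with a log2 difference of 0.27. More than 1.2-fold lower were 3 of 16 receptors (13.1% of all genes), among them the adrenergic receptor Adra2a at 7.66 and 5.61 TPM, with -0.55. These shares are near those of all genes.

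The 14 listed GIRK regulators were also all detected. The G protein beta subunit genes Gnb1 and Gnb2, whose products bind and open the channel, had 394 and 425 TPM and 303 and 310 TPM. Gnao1, the main inhibitory alpha subunit gene of brain, had 312 and 333 TPM. Rgs4, which shortens G protein signals, had 175 and 189 TPM. By scaled counts 3 of 14 regulators were more than 1.2-fold lower in replicate 2 (13.1% of all genes) and 0 of 14 were higher by this fold (14.3% of all genes). Among the lower ones were Kctd12, a GABA-B receptor subunit that speeds desensitisation, with 25.2 and 20.4 TPM and a log2 difference of -0.39, and Snx27, with 59.0 and 50.8 TPM and -0.35.

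Kcnj4 (chromosome 15, 79483714 to 79505241, minus strand) encodes Kir2.3, a strong inward rectifier of forebrain neurons. Its levels were 81.6 and 112 TPM in replicates 1 and 2, a mean of 96.6 ± 21.2 (SD, n = 2), the widest spread of the 10 genes in TPM. All of it was assigned to 1 annotated transcript. The 300-base RefSeq promoter window of Kcnj4 (GRCm38.p6) held 41 CG dinucleotides. Of 32851 promoters, whose median was 7, 3.46% held at least as many. The other Kir2 genes were far lower. Kcnj2, the gene of Kir2.1, had 7.58 and 12.9 TPM, Kcnj12, the gene of Kir2.2, had 9.04 and 7.15 TPM, and Kcnj14 had 0.84 and 1.13 TPM. Kcnj4 thus exceeded Kcnj2 by 10.8-fold and 8.66-fold in TPM. The Kir2 genes together held 30.6% and 34.6% of Kcnj TPM. The 5 listed scaffold genes whose products hold Kir2 channels at the membrane were all detected. By scaled counts 0 of 5 were past 1.2-fold, against 14.3% of all genes higher and 13.1% lower, which for a list of 5 genes says little. The highest was Dlg4, the gene of PSD-95, with 388 and 402 TPM, and the lowest was Lin7a with 26.2 and 24.3 TPM.

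Kcnj11 (chromosome 7, 46093953 to 46100764, minus strand) encodes Kir6.2, the pore of the neuronal KATP channel. It had 17.8 and 21.6 TPM, a mean of 19.7 ± 2.74 (SD, n = 2). Its regulatory partner SUR1, which senses the nucleotides, is encoded by Abcc8, which lies 3758 bases upstream of Kcnj11 on the same strand with no annotated gene between them. Abcc8 had 13.7 and 19.4 TPM, so Abcc8 and Kcnj11 were both higher in replicate 2. The ratio of Abcc8 to Kcnj11 TPM was 0.771 and 0.897, but 0.767 and 0.733 in the second table, so its direction between the animals differs by table. The vascular KATP genes were low, with 1.10 and 0.98 TPM for the pore gene Kcnj8 and 2.16 and 2.21 TPM for Abcc9, the gene of SUR2. The transcript that encodes all 390 codons held 80.7% and 93.6% of Kcnj11 TPM in the first table but 92.3% and 74.9% in the second, so the tables disagree on which animal had more of it.

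Kcnj10 and Kcnj16 encode the glial subunits Kir4.1 and Kir5.1, which assemble into a pH-sensitive channel. Kcnj10 (chromosome 1, 172341210 to 172374085, plus strand) had 55.4 and 61.7 TPM, a mean of 58.5 ± 4.45 (SD, n = 2). It points away from Kcnj9, on the opposite strand, with 11891 bases and no annotated gene between them. Kcnj16 (chromosome 11, 110968033 to 111027968, plus strand) had 13.2 and 13.6 TPM, a mean of 13.4 ± 0.240 (SD, n = 2), the smallest spread of the 10 genes in TPM. The length used for Kcnj16 TPM was 3290 bases in replicate 1 and 3083 in replicate 2. By scaled counts its log2 difference was -0.14, farther from 0 than that of Kcnk9 at -0.01. The ratio of Kcnj16 to Kcnj10 TPM was 0.239 and 0.220, so Kcnj10 RNA was the more abundant in both animals. Together they held 21.2% and 19.6% of Kcnj TPM.

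A list of astrocyte genes, which joins partners of Kir4.1 with general astrocyte markers such as Aldoc, Aldh1l1 and Gfap, was all detected (12 of 12). The glutamate transporter gene Slc1a2 had 846 and 804 TPM, the glycolytic Aldoc had 342 and 379 TPM and the second glutamate transporter gene Slc1a3 had 139 and 135 TPM. The water channel gene Aqp4, whose product sits with Kir4.1 in astrocyte endfeet, had 40.9 and 41.9 TPM. Kcnj10 exceeded Aqp4 by 1.36-fold and 1.47-fold in TPM. By scaled counts 1 of these 12 genes was more than 1.2-fold lower in replicate 2 (13.1% of all genes) and 0 of 12 were higher (14.3% of all genes). The lower one was the gap junction gene Gjb6, with a log2 difference of -0.28 and levels of 44.2 and 41.3 TPM. In TPM the astrocytic enzyme gene Aldh1l1 differed more, with 29.1 and 21.3 TPM and a log2 difference of -0.17.

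Kcnj16 has 3 clusters of starts in the GENCODE M21 annotation, and the deposited tables did not assign its RNA to them alike. In the first table the middle start took 88.3% and 81.3% of Kcnj16 TPM and the upstream start 0% and 18.7%. In the second table the middle start took 50.4% and 30.7% and the upstream start 49.4% and 69.3%. The rest was at the downstream start, with 11.7% and 0% in the first table and under 1% in the second. In the first table the upstream and downstream shares were assigned to short transcripts with an incomplete coding sequence. The 4 complete forms, spread over all 3 starts, have 419 codons each and the same coding end. Both tables had a larger upstream share in replicate 2, and no start can be called the main one from these files.

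The windows around the upstream and the middle start of Kcnj16 are shown because the tables divide its RNA between these starts. Each line is the plus strand of RefSeq's GRCm38.p6 table, 250 bases before to 50 bases after the start, with CG dinucleotides, which read the same on both strands, in capitals.
Upstream start, chr11:110967783-110968082: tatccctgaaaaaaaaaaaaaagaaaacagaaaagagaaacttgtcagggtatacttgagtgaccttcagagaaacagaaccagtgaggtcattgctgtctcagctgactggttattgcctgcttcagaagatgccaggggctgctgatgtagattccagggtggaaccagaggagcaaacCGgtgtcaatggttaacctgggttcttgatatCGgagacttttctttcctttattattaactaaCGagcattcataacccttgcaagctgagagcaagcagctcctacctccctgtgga
Middle start, chr11:110997237-110997536: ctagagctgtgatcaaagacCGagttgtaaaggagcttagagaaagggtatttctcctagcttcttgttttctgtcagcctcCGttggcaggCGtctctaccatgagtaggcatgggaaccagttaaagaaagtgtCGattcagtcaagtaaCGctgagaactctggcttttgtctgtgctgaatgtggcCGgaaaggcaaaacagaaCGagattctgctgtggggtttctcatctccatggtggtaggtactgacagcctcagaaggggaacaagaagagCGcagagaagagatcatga
The upstream window held 3 CG and the middle window 8 CG, and 76.7% and 48.6% of 32851 promoter windows of this length held at least as many. RefSeq also has a Kcnj16 start at 111019585, which is not among the GENCODE M21 starts.

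**Figure D2:**
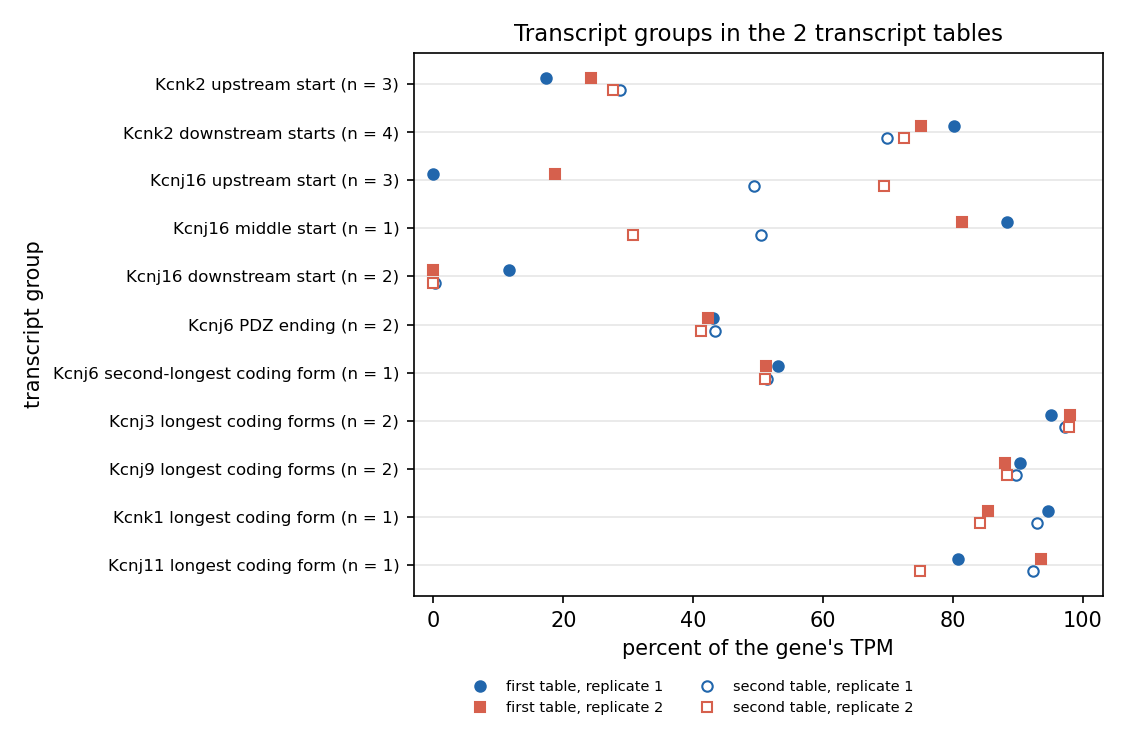
Percent of the gene's TPM (horizontal axis) in groups of transcripts (vertical axis; n is the number of transcripts in the group); filled symbols are the first table, open symbols the second, circles replicate 1 and squares replicate 2. The 4 points lie close together for the coding forms of Kcnj3, Kcnj6 and Kcnj9, while for Kcnj16 the middle start has 88.3% and 81.3% in the first table but 50.4% and 30.7% in the second.

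Of the leak channel genes, Kcnk1 and Kcnk2 had similar levels, and Kcnk9 was lower in both animals. Kcnk1 (chromosome 8, 125995170 to 126030685, plus strand) encodes TWIK-1, a channel of neurons and astrocytes. It had 38.3 and 35.0 TPM, a mean of 36.6 ± 2.32 (SD, n = 2). Kcnk2 (chromosome 1, 189207930 to 189402273, minus strand) encodes TREK-1, which opens with membrane stretch, arachidonic acid and volatile anaesthetics. It had 30.5 and 33.8 TPM, a mean of 32.2 ± 2.38 (SD, n = 2). Kcnk9 (chromosome 15, 72501089 to 72546340, minus strand) encodes TASK-3, an acid-sensitive channel, and is expressed mainly from the maternal copy in brain. It had 12.3 and 12.9 TPM, a mean of 12.6 ± 0.445 (SD, n = 2). The ratio of Kcnk1 to Kcnk2 was 1.26 and 1.03.

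Kcnk9 shows how far counts and levels part: with an annotated length of 12300 bases it had 2720 and 2972 counts, the fifth most of the 10 genes, but the lowest TPM. Its neighbours in the imprinted cluster were all detected. Trappc9 had 30.7 and 32.1 TPM and the noncoding Peg13, which lies inside Trappc9, had 108 and 113 TPM. Ago2 had 39.8 and 39.3 TPM and Chrac1 had 5.98 and 7.91 TPM. Which parental copy gave this RNA was not analysed here.

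The 3 leak genes held 62.0% and 61.0% of the summed TPM of the 14 Kcnk genes. Kcnk4, the gene of TRAAK, had a higher mean than Kcnk9, with 12 and 14.9 TPM, and close to Kcnk9 were Kcnk12 with 13 and 11.2 TPM and Kcnk3, the gene of TASK-1, with 12.1 and 11.9 TPM. Kcnk3 and Kcnk9, whose subunits can pair, were close in level, with Kcnk9 to Kcnk3 ratios of 1.02 and 1.08 in the first table but 0.778 and 0.906 in the second. Kcnk7 and Kcnk16 had 0 counts in both libraries, and 3 counts in replicate 1 would be 0.164 and 0.116 TPM. Of the 15 Kcnj genes 10 were detected and of the 14 Kcnk genes 9, against 58.9% of all protein-coding genes. Kcnj1, the kidney gene of Kir1.1, also had 0 counts, where 3 counts would be 0.0705 TPM. These limits cover counting error only.

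**Figure D3:**
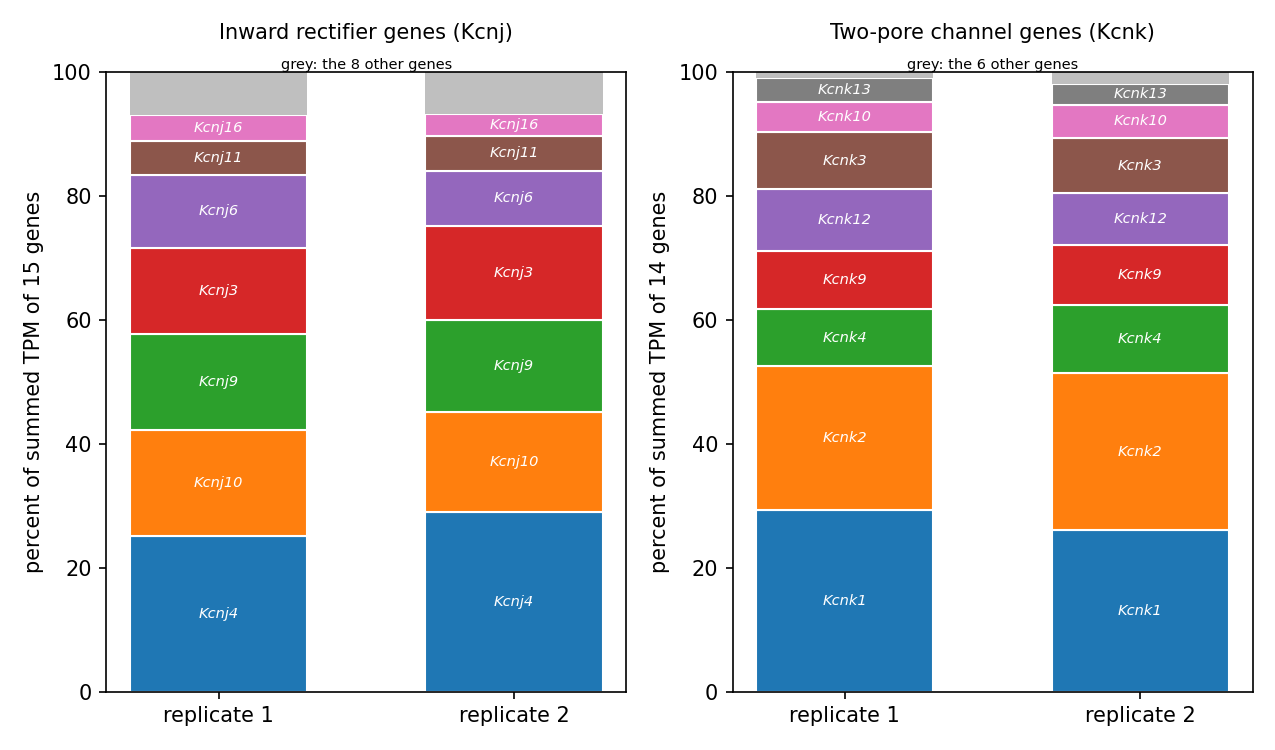
Percent of the summed TPM (vertical axis, from 0) of the 15 Kcnj genes (left) and the 14 Kcnk genes (right) in each replicate (horizontal axis); genes with a mean share of at least 3% have a colour and a name, and grey is the rest. Kcnj4 holds 25.2% and 29.1% of the inward rectifier sum, and Kcnk1 and Kcnk2 together hold the larger part of the leak channel sum in both animals.

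Kcnk1 and Kcnk2 also had more than 1 coding form. The 336-codon form of Kcnk1 held 94.6% and 85.3% of its TPM, and a 328-codon form with another ending held 5.44% and 14.7%. The second table gave 7.06% and 15.9% for the latter, so both tables had the larger share in replicate 2. For Kcnk2 a cluster of 4 downstream starts took 80.1% and 75.0% of the TPM, and the start farthest upstream took 17.4% and 24.3%. In the first table all RNA at the upstream start was assigned to a transcript annotated for nonsense-mediated decay, a pathway that degrades RNA with an early stop. The second table gave the upstream start 28.7% and 27.6%, split between that transcript and a 422-codon form.

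The log2 differences of the 10 genes between the animals are from the same TMM-scaled counts. Past 2-fold were 0 of the 10 genes, against 1.26% of all measured genes, which for 10 genes says little. The median over the 10 genes was 0.06, against -0.02 over all measured genes, and the range was -0.27 to 0.39. All 10 values lay inside the central 95% of all genes, -0.57 to 0.69.

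More than 1.2-fold higher in replicate 2 were Kcnj11, Kcnj4 and Kcnj3. Kcnj11 had a log2 difference of 0.39 with a counting standard error of 0.0657, Kcnj4 of 0.37 with 0.0342 and Kcnj3 of 0.30 with 0.0323. Of all measured genes 14.3% were higher by this fold. More than 1.2-fold lower was 1 gene, Kcnk1, with -0.27 and a standard error of 0.0549, against 13.1% of all genes. Kcnj6 was just inside this fold with -0.25. The remaining 5 genes, Kcnj9, Kcnj10, Kcnk2, Kcnk9 and Kcnj16, lay between -0.14 and 0.10. The deposited credibility intervals of TPM did not overlap between the animals for 6 of the 10 genes, Kcnj3, Kcnj4, Kcnj6, Kcnj9, Kcnj10 and Kcnj11, against 19.8% of all measured genes. The 2 shares are not like for like, since intervals narrow as counts rise. The 10 genes had 764 to 6174 counts per library, whereas the measured genes start at a mean of 50. The intervals are also on TPM without TMM scaling, and by scaled counts Kcnj9 and Kcnj10 differed by only 1.07-fold and 1.05-fold. These errors and intervals cover the counting and assignment of reads in 1 library per animal, so they do not separate animals from library preparation.

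The direction of the small differences depends on the scaling. Spike-in scaling shifts the median of all genes by 0.28 on the log2 scale, and under it Kcnj6, Kcnj16, Kcnk1 and Kcnk9 changed sign, to 0.02, 0.14, 0.01 and 0.27. Kcnk9, at -0.01 with TMM, was also above 0 with total-count scaling (0.03) and in the second table (0.01). Spike-in scaling moves every well-counted gene by nearly the same amount, so it cannot change the order of the 10 differences. Of the other channel genes, Abcc8 with 0.70, Kcnj2 with 0.68 and Kcnk6 with 0.64 had the largest positive log2 differences. Their counting standard errors were 0.069, 0.0666 and 0.211. Kcnj2 lies 38195 bases downstream of Kcnj16, which was at -0.14. The lowest were Kcnj12 and Kcnj13 with -0.42 each, with counting standard errors of 0.113 and 0.245. Kcnj13 had only 77 and 63 counts, so its difference is poorly measured. Kcnj13, the gene of Kir7.1, is itself a choroid plexus marker, and the choroid plexus marker Ttr had 172 and 55.7 TPM. Their part in the Kcnj13 value was not tested.

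**Figure D4:**
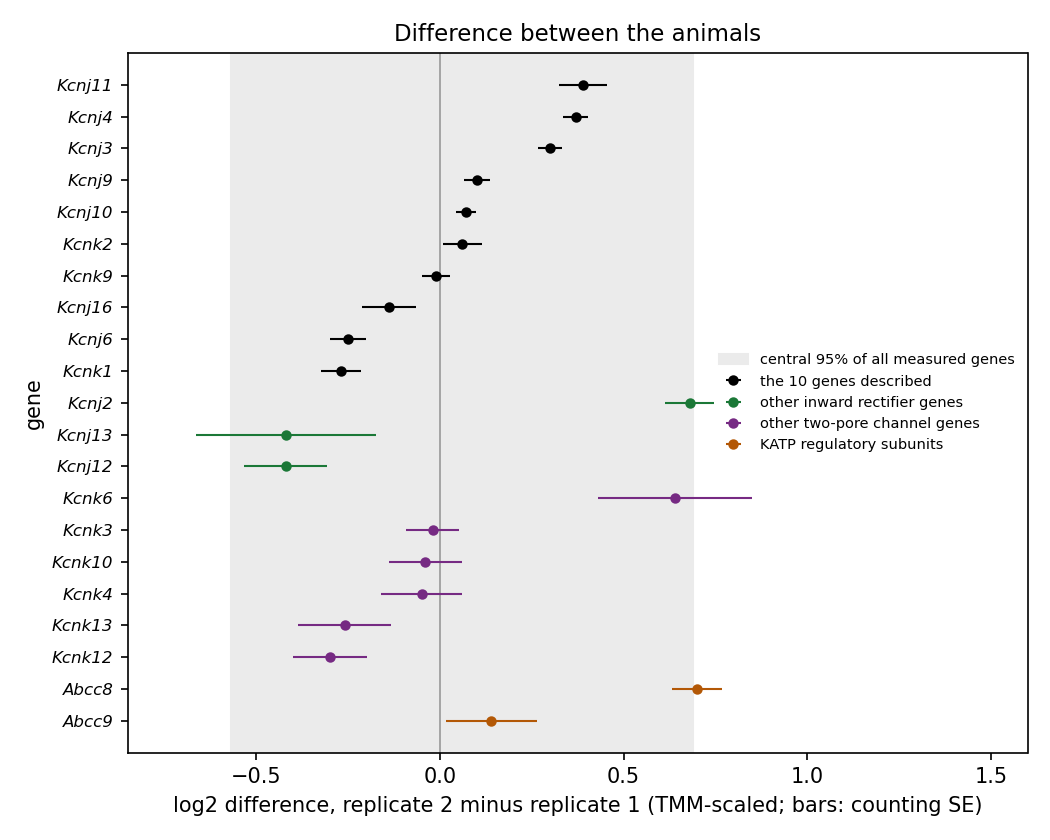
Log2 difference between the animals, replicate 2 minus replicate 1 (horizontal axis), for the channel genes averaging 50 counts or more (vertical axis); bars are the counting standard error and the grey band is the central 95% of 14127 genes. All 10 genes described lie inside the band, from -0.27 for Kcnk1 to 0.39 for Kcnj11, and Abcc8 lies at its upper edge with 0.70.

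Some of these genes share sequence with overlapping genes on the other strand, and no source used here says whether reads were counted by strand. Of the 50-base stretches of Kcnj3 transcripts, 29.3% also occur, on the opposite strand, in the noncoding RNA gene Gm26794, which had 79 and 80 counts. For Kcnk2 the share was 9.26%, with the antisense gene A430027H14Rik, at 32 and 37 counts. For Kcnk1, Kcnj6 and Kcnj9 it was 5.82%, 4.34% and 2.87%, with antisense genes of at most 1 count. Kcnj4 and Kcnj11 shared none with any other gene. Kcnj10, Kcnj16 and Kcnk9 have no annotated gene on the opposite strand and shared 1.62%, 1.3% and 0.0245% with scattered genes. For Kcnj3, Kcnk2, Kcnk1, Kcnj6 and Kcnj9, a part of the counts from the partner strand was not tested.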

How the data were processed

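RNA sequencing of total RNA was deposited for 2 libraries, 1 per animal, made per the labels' protocols with a directional kit. The deposited readme names build mm10 and the GENCODE M21 annotation. No source used here names the tools that mapped and counted the reads. The first table has the column layout that RSEM writes, with a gene and a transcript file, and the second has the layout that kallisto writes. Expected counts are the authors' estimated counts, not normalized, so reads matching more than 1 feature are divided among them. TPM values are deposited in both tables. Per the file headers, a column holds each transcript's percent of its gene's TPM. The credibility bounds are deposited scores, drawn around a posterior mean that can differ from the TPM beside them, and their level is not stated.

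Levels are TPM of the gene table, with the mean and SD over 2 animals. Spike-ins were left out of the TMM factors. Differences were computed with edgeR 4.0.16 in R 4.3.3 (prior count 1) on expected counts rounded to whole numbers and tested on simulated data, and DESeq2 1.42.0 gave other size factors. Pandas 2.3.3 and Biopython 1.88 read tables and sequences. No p-value was computed, since the labels give 1 group. A pseudocount was not added to TPM.

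Detection took 1 TPM in both libraries, and a difference took a mean of at least 50 counts. The genes and lists were chosen with earlier results of these data known. All 10 genes were named, and of each other list up to 4 of the highest, the lowest and up to 2 of the largest differences. Other Kcnj and Kcnk genes could be named with their level, and Aqp4 was named outside the rule. A few items that the rule would name are not reported here. With 2 libraries no measure of likeness between genes was possible, so none are named as alike. RefSeq's promoter table held no window for Kcnj11 and Kcnk9. Counts set the precision: the 10 genes had 764 to 6174 counts per library.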

Additional observations from a re-analysis of the deposited data

How the results depend on the processing

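No paired analysis was possible because there is 1 group. Leaving out an animal leaves no difference between animals, and each level is then that of the other animal. Of all measured genes, 178 were past 2-fold with TMM, 341 with spike-in scaling and 5167 without the filter on low counts. Past 1.2-fold were 3869, 7228 and 14583 genes in the same order, the last again with the low-count genes included. Of the 10 genes 4 were past 1.2-fold (3 higher and 1 lower in replicate 2), and with spike-in scaling 7, all 7 higher and 0 lower. Kcnk1 was the lower one. It was at 0.01 with spike-in scaling, which reversed its sign, and total-count scaling left 0 genes lower by this fold. None of the 10 was past 2-fold under any scaling tried. DESeq2 size factors, total counts, a prior count of 0.5, no filter and the second table left the log2 difference of 10 of 10 genes within its 95% counting interval. Most of these settings are a weak check. The filter cannot change these values, and the prior count hardly can at the counts of these genes. DESeq2 and total-count scaling shifted the median of all genes by only 0.01 and 0.04. The median level of the 10 genes was 36.5 TPM in the first table and 32.5 TPM in the second, which was lower for 10 of 10 genes (ratio 0.77 to 0.964). With protein-coding transcripts alone, Kcnj9 had 47.7 TPM and Kcnk2 24.9 TPM, and the other 8 levels stayed within their SD. The GIRK share of Kcnj TPM was 40.2% in the first and 42.8% in the second. Of 15 transcript shares 5 moved beyond the SD in the second table, those of the Kcnj16, Kcnk2 and Kcnj6 starts. The cause of these shifts was not tested.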
